A study of Mus musculus with 4 samples.

Results

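RFX2 occupancy was described at the 8 Rfx genes of the mouse, Rfx1 to Rfx8, among 21938 protein-coding genes. The genes were chosen by name. No peak value entered the rule, but earlier results of these data were known when it was made. Each was examined over its promoter, here the stretch reaching 1000 bp before and 500 bp beyond any annotated transcription start site (TSS), over its gene body, and over 100 kb to each side. Occupancy was measured by ChIP-seq, which recovers with an antibody the chromatin fragments that a protein is attached to and reads their DNA. Chromatin of decapsulated testis from wild type (WT) mice was precipitated with an antibody to RFX2 in 2 independent experiments, called replicates 1 and 2, with 1 input without antibody for each. All 4 samples came from mice of a mixed C57BL/6, 129/Sv and FVB/N background at postnatal day 29 to 30 according to the labels, whereas the study's text describes dissociated germ cells of younger animals. Whole testis holds germ cells of many stages together with Sertoli and Leydig cells, so the peaks alone cannot be assigned to a cell type. The study's text describes RFX2 protein as confined to germ cells, with none detected in Sertoli cells. The germ cell stage of a peak stays unknown. The inputs enter only through the calling of peaks, and RFX2-deficient testis was not analysed here.

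RFX proteins are transcription factors with a winged-helix DNA-binding domain. Most of them bind as homodimers or heterodimers to the X-box, an inverted repeat in which each partner contacts 1 arm. RFX2 is abundant in spermatocytes and round spermatids and is required for spermatid maturation. RFX1 and RFX3 are its closest relatives and can dimerize with it. RFX3 and RFX4 are known for cilium formation, RFX5 for transcription of MHC class II genes, RFX6 for endocrine pancreas development, and RFX7 lacks the dimerization domain. RFX8 is less studied. RFX2 recognizes the same motif as its relatives. The antibody was to RFX2, and its specificity was not examined here. Dimers of RFX2 with a relative cannot be told apart from RFX2 homodimers in the peaks. Peaks at Rfx genes bear on where RFX2, alone or with a relative, occupies genes of its own family, Rfx2 included.

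Peaks were taken from 3 lists. The replicate 1 list held 39825 peaks and the replicate 2 list 21274, each with 1 score per peak on a −log10 scale, with medians of 4.47 and 5.06. The third list, here called the combined list, held 2726 peaks with −log10 p between 43.2 and 493, a fold enrichment over local background and a summit, which is the position of highest signal. It appears to derive from the pooled reads of both replicates, so its overlap with either of them is no independent replication. Read depth is unknown, since the lists carry no counts, and no interval of counting error can be given.

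A promoter peak of the combined list was found at 3 of the 8 genes, Rfx1, Rfx2 and Rfx3, against 5.26% of all protein-coding genes. These encode the member that the antibody was directed to and its closest relatives. The strongest peak in any Rfx gene was not at a promoter, but in intron 1 of Rfx2, where it ranked 143 of 2726. In all, 8 combined peaks fell into the windows. Of these, 3 lay in the promoters of Rfx1, Rfx2 and Rfx3, 2 lay in introns of Rfx2 and Rfx4, and 3 lay in promoters of other genes near Rfx1 and Rfx7. No combined peak was found near Rfx5, Rfx6 or Rfx8. Over the windows, 5 of 8 genes held a combined peak, against 35.5% of all genes, but long genes have larger windows and those of the Rfx genes ranged from 207 kb at Rfx5 to 449 kb at Rfx3, against a median of 217 kb. The counts of members were not tested against chance.

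**Figure D1:**
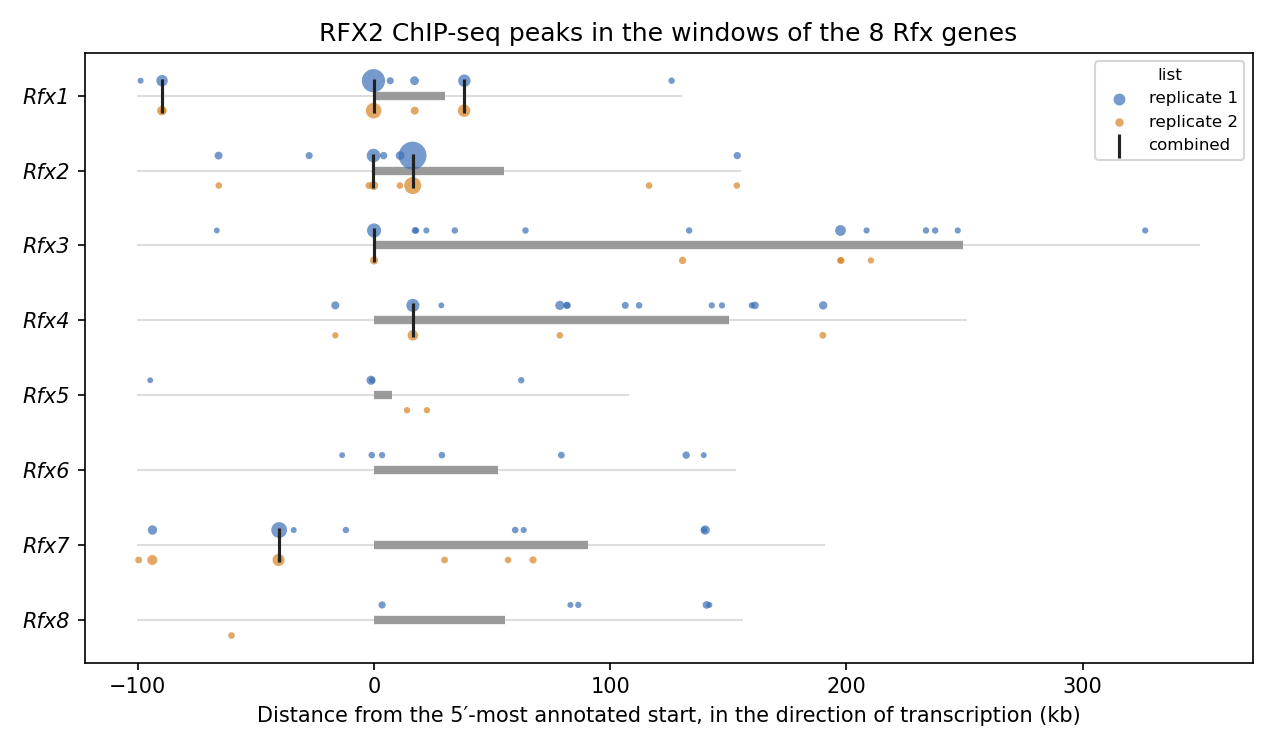
Peaks in the windows of the 8 Rfx genes, plotted by distance from the 5′-most protein-coding TSS in kb. The gene body is a thick bar and the window a thin line. Points above and below each line are peaks of replicates 1 and 2 with area growing with the score, and black ticks are the 8 combined peaks: 3 at Rfx1, 2 at Rfx2, 1 each at Rfx3, Rfx4 and Rfx7, and 0 at Rfx5, Rfx6 and Rfx8.

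The sequence below the summit is shown for 4 combined peaks in promoters or introns of Rfx genes. Their summits lie outside annotated untranslated regions. Untranslated bases were left out, so the Rfx1 stretch has 96 bases and the others 121. The X-box was taken as GTTGCCATGGCAAC, with its arms GTTGCC and GGCAAC, allowing at most 3 mismatches on either strand within 100 bp of the summit. Coordinates are those of GRCm38, each sequence runs 5′ to 3′ in the direction of its gene, and capitals mark an X-box or, where none was found, copies of the first 5 bases of an arm, GTTGC or GCAAC.
Rfx2 intron 1, chr17:56814465-56814585, minus strand: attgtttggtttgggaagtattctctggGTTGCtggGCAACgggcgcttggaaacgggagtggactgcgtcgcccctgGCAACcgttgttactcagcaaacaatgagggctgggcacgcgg
Rfx2 promoter, chr17:56831155-56831275, minus strand: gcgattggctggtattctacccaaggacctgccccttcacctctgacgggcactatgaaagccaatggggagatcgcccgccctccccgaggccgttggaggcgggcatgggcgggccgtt
Rfx1 promoter, chr8:84066738-84066833, plus strand: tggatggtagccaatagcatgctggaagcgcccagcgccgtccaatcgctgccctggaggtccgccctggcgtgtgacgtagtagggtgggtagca
Rfx4 intron 1, chr10:84772484-84772604, plus strand: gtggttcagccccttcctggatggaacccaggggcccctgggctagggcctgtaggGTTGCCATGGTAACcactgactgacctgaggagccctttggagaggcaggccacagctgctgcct
The Rfx4 intron carries an X-box in the middle of the shown window, and the Rfx2 intron carries 3 arm copies but no X-box. Neither promoter carries either in the stretch shown. Within 100 bp of the summit, bases left out here included, the Rfx2 intron holds 4 arm copies. The Rfx1 promoter holds 3 and the Rfx2 promoter 1.

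At Rfx2 (ENSMUSG00000024206.15, chr17:56775897-56831013, minus strand, 5 annotated TSSs) 2 combined peaks were found. The intron peak spanned chr17:56813975-56815179, 1205 bp, with its summit at 56814525, 16.5 kb downstream of the 5′-most TSS and 16414 bp from the nearest TSS of the gene. This position is in intron 1 of all 3 protein-coding transcripts of the gene. Its −log10 p was 235, with a fold enrichment of 25.1, and its score was 216 in replicate 1 and 76.3 in replicate 2. It was the 84th peak of replicate 1 and the 233rd of replicate 2, which placed 0.208% and 1.09% of the peaks of those lists above it. Among the 1723 combined peaks outside promoters it ranked 50th, and among the 715 of these in gene bodies 20th.

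The Rfx2 promoter peak spanned chr17:56830862-56831463, 602 bp, with its summit 202 bp upstream of the 5′-most TSS. Its −log10 p was 45.2 and its fold enrichment 6.64, which placed it 2621st by p and 2704th by fold of the 2726 combined peaks. Its score was 45.9 in replicate 1 and 16.0 in replicate 2, or rank 1948 and 2254. It is thus near the lower end of the combined list, whose lowest −log10 p was 43.2, and in the upper part of both replicate lists, where 95.1% and 89.4% of the peaks scored lower.

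The intron peak exceeded the promoter peak of Rfx2 in every list. The ratio of their scores was 5.20 in the combined list, 4.70 in replicate 1 and 4.78 in replicate 2. Of the 41 genes with a combined peak in the promoter and another in the gene body, 15 (36.6%) had the higher score in the gene body, and the median ratio was 0.816. Rfx2 had the second-largest ratio, at rank 2 of 41, after Ttc30a1, at 8.39. This ratio was chosen for description after the values were seen.

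**Figure D2:**
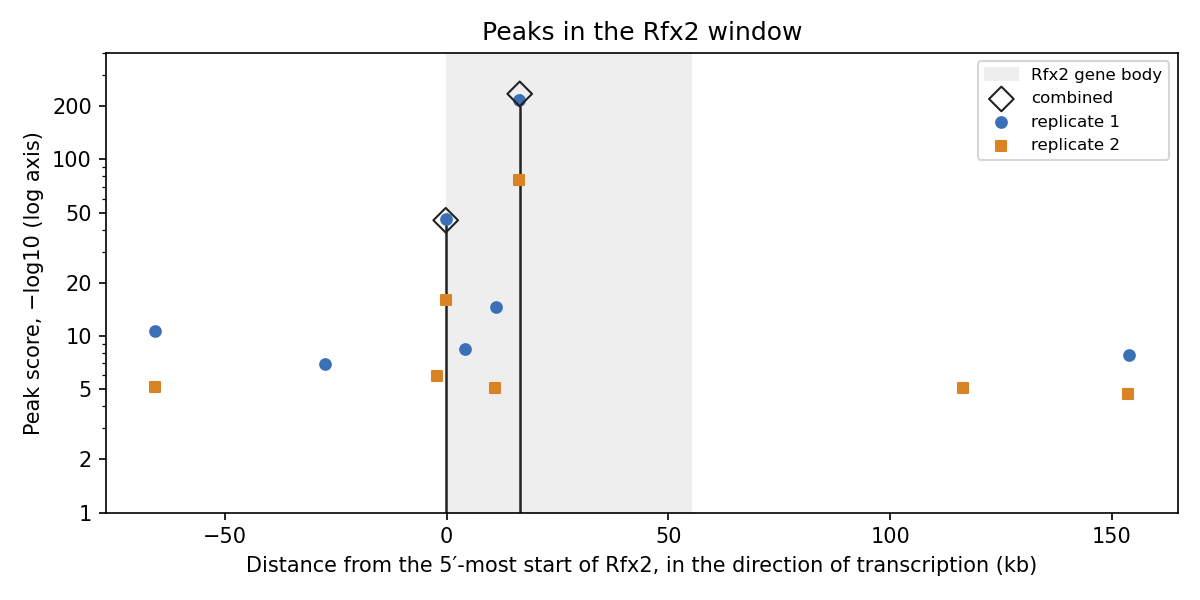
Score of each peak in the Rfx2 window (−log10, log axis) against distance from the 5′-most TSS in kb, with the gene body shaded. The combined list (open diamonds), replicate 1 (circles) and replicate 2 (squares) all have their highest score in intron 1, at 235, 216 and 76.3, above the promoter at 45.2, 45.9 and 16.0.

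Both replicates held 2 further, weaker peaks at Rfx2 that overlapped each other and were in no combined peak. One lay in the gene body about 11.1 kb downstream of the TSS, with scores of 14.5 and 5.08 and the X-box GTTGCCTTGACTAC (chr17:56819956-56819969). The other lay at the TSS of Mllt1, a gene of the super elongation complex, 65.7 kb upstream of Rfx2, with scores of 10.6 and 5.14. That peak held GTTGCCTTGGCAAC (chr17:56896683-56896696), which differs from the X-box by A7T alone, counted from position 1 at the 5′ end. The Mllt1 peak, over a near-perfect X-box, thus scored 10.6 in replicate 1, where the Rfx2 intron peak, which holds none, scored 216.

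In the window of Rfx1 (ENSMUSG00000031706.7, chr8:84066834-84096992, plus strand), 3 combined peaks were found, a number that 2.79% of all genes reached, whereas 10.4% reached the 2 of Rfx2. Only 1 of the 3 lay at Rfx1 itself, in its promoter. The promoter peak spanned chr8:84066334-84067040 with its summit 36 bp upstream of the TSS. It had a −log10 p of 173, a fold enrichment of 21.0 and rank 361, and its scores were 148 in replicate 1 and 62.5 in replicate 2. It was the highest of the 3 promoter peaks in all lists. A gene annotated as antisense RNA, C330011M18Rik, overlaps the same region, and the peak cannot be assigned to one of the genes.

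The other combined peaks near Rfx1 lay at TSSs of other genes. The peak 38.2 kb downstream of the Rfx1 TSS, chr8:84104735-84105555, had its summit 297 bp upstream of a TSS of Dcaf15, which encodes a substrate receptor of a CUL4 ubiquitin ligase. It reached a −log10 p of 66.3 and scores of 37.1 and 37.7, and it held the X-box GTTTCCGTGGAAAC (chr8:84105063-84105076). The peak 89.7 kb upstream, chr8:83976767-83977639, had its summit 209 bp downstream of a TSS of Prkaca, which encodes a catalytic subunit of protein kinase A needed for sperm motility. With a −log10 p of 44.4 and scores of 30.4 and 18.3, it held GTTGTTATAGCAAC (chr8:83977110-83977123). A weaker shared peak, in no combined peak, lay in the Rfx1 gene body 17.2 kb from the TSS, with scores of 15.0 and 10.9, over GTTGCCATGGTTAC (chr8:84084030-84084043), 2 mismatches from the X-box.

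At Rfx3 (ENSMUSG00000040929.17, chr19:27761721-28011166, minus strand, 8 annotated TSSs), 1 combined peak was found. It spanned chr19:28010906-28011197, and its summit was 1 bp upstream of the TSS at 28011048 and 91 bp downstream of the 5′-most protein-coding TSS. At 292 bp it was among the narrowest of the combined list, ranking 2722 of 2726 by width. Its −log10 p was 54.6, its fold enrichment 9.84 and its rank 2185. The scores were 50.3 in replicate 1 and 11.9 in replicate 2, the largest ratio between replicates among the 8 peaks. Deep in the gene body, 198 kb from the 5′-most TSS, a shared peak scored 26.3 in replicate 1 and 5.27 in replicate 2. Its replicate 1 interval holds GTTGTCATGGTAAC (chr19:27813693-27813706), 2 mismatches from the X-box.

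At Rfx4 (ENSMUSG00000020037.15, chr10:84756062-84906538, plus strand), no combined peak lay in a promoter, but 1 lay in an intron. It spanned chr10:84772101-84773039, with its summit 16.5 kb from the 5′-most TSS and 10306 bp from the nearest one, in intron 1 of the transcript Rfx4-202. Its −log10 p was 60.3, its fold enrichment 8.92 and its rank 1950, and it scored 41.9 and 24.6 in replicates 1 and 2. The X-box below it, GTTGCCATGGTAAC (chr10:84772540-84772553), differs by C11T alone and its centre lies 2.5 bp from the summit. Both replicates had a weak peak at an internal TSS of Rfx4, at 84834746, with scores of 16.7 and 4.99. Replicate 1 alone had 2 more promoter peaks, near the internal TSS at 84838148, with scores of 6.88 and 5.90. Rfx4 therefore counts as having a promoter peak in each replicate and none in the combined list. Weak shared peaks were also found 16.3 kb upstream of Rfx4, at 11.2 and 4.08, and about 190 kb downstream of its TSS, nearest to Ric8b, at 12.6 and 6.03.

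At Rfx7 (ENSMUSG00000037674.15, chr9:72532240-72622937, plus strand), the 1 combined peak in the window lay 40.3 kb upstream, at chr9:72491591-72492715, with its summit 4 bp upstream of the TSS of Tex9, a testis-expressed gene. Its −log10 p was 80.8, its rank 1382 and its scores 64.6 and 35.0, and it held GTTGCCGTGGTGAC (chr9:72491977-72491990). A weaker shared peak lay 93.7 kb upstream, at the TSS of Mns1, which encodes a protein of the sperm flagellum, with scores of 17.8 and 21.7. The promoter of Rfx7 held no peak in replicate 1, and 1 in replicate 2, at an internal TSS, with a score of 7.61.

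No peak was shared by the replicates at Rfx5, Rfx6 or Rfx8. At Rfx5 (ENSMUSG00000005774.12, chr3:94954075-94961561, plus strand), replicate 1 had a peak at the upstream edge of the promoter, centred 1187 bp from the TSS, with a score of 16.6 and rank 5307, and another with a score of 2.71. At Rfx6 (ENSMUSG00000019900.19, chr10:51677756-51730432, plus strand), the promoter peak of replicate 1 had a score of 5.08, and replicate 2 had no peak in the whole window. At Rfx8 (ENSMUSG00000057173.8, chr1:39665301-39720997, minus strand), no promoter peak was found in either replicate, and the highest scores in the window were 9.37 and 5.06. With depth unknown, a missing peak means that none passed the caller's threshold or, in the combined list, its later cut. It does not mean that RFX2 was absent.

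In the replicate lists, promoter peaks were thus found at 6 of 8 Rfx genes in replicate 1, against 14.0% of all genes. In replicate 2 they were found at 5 (11.3%), and in both at Rfx1, Rfx2, Rfx3 and Rfx4 (9.05%). Any annotated TSS counted, and a gene with more TSSs is called more readily. The Rfx genes had between 2 (Rfx1 and Rfx8) and 15 (Rfx5). Promoter peaks of Rfx4 and Rfx7 lay at internal TSSs alone. The windows held 65 peaks of replicate 1 and 31 of replicate 2, of which 16 formed pairs shared between replicates. These were 24.6% of the replicate 1 peaks and 51.6% of the replicate 2 peaks, against 20.1% and 37.5% over the whole lists. The 49 unshared peaks of replicate 1 scored between 2.34 and 17.4, and the 15 of replicate 2 between 2.34 and 8.02. Every pair that coincided with a combined peak scored at least 30.4 in replicate 1 and 11.9 in replicate 2. The 8 pairs that did not scored at most 26.3 and 21.7.

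**Figure D3:**
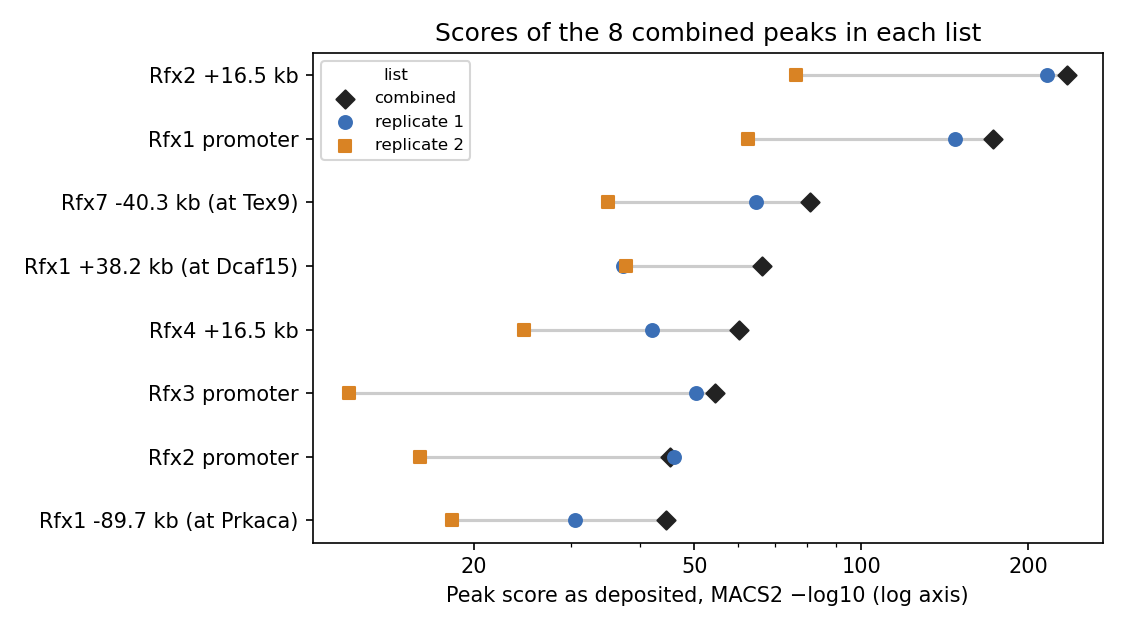
Scores of the 8 combined peaks in the Rfx windows (−log10, log axis), ordered by the combined list, which is shown by diamonds, with replicate 1 as circles and replicate 2 as squares. Replicate 1 lies above replicate 2 at 7 peaks and both nearly coincide at the Dcaf15 TSS, at 37.1 and 37.7, and the upper 3 peaks keep their order in all lists.

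Scores were higher in replicate 1 than in replicate 2 at all of these 8 peaks except the one at Dcaf15. The log2 ratio of replicate 1 to replicate 2 ranged from −0.02 at Dcaf15 to 2.08 at the Rfx3 promoter, with a median of 1.06. Over the 2723 combined peaks met by both replicates the median was 1.34, with 5% to 95% of the values between 0.25 and 2.63, and 7 of the 8 peaks lay within that range. The Rfx2 intron and the Rfx2 promoter had nearly the same ratio, at 1.50 and 1.52. Of the 28 possible pairs among the 8 peaks, 19 had the same order in both replicates. Among the 7 steps between neighbours in the order, only the step from the Rfx2 intron to the Rfx1 promoter, and that from the Rfx1 promoter to the peak at Tex9, held in both, and each of the other 5 was reversed in at least 1 replicate. No test of these differences was run, since 2 replicates give it very little power.

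The fold enrichment of 6 of the 8 peaks was below the list's median of 17.0. About 50% of all combined peaks lie below it by definition, and the count was not tested. Of these 6, 3 lay in promoters of other genes, Prkaca, Dcaf15 and Tex9. The exceptions were the Rfx2 intron at 25.1 and the Rfx1 promoter at 21.0. The same 2 peaks were the only ones with a −log10 p above the list's median of 82.1. The Rfx2 promoter, at 6.64, had the lowest fold of the 8, and the Rfx4 intron, at 8.92, the next lowest.

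**Figure D4:**
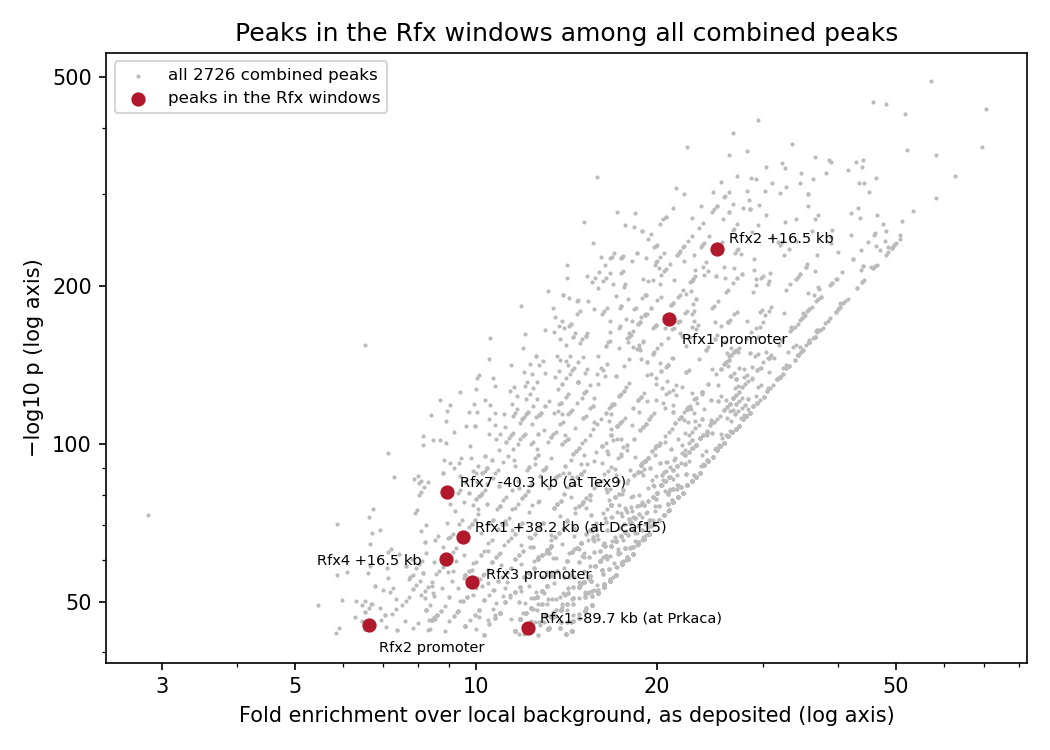
Fold enrichment over local background against −log10 p (both log axes) for all 2726 combined peaks in grey and the 8 in the Rfx windows in red. The Rfx2 intron (25.1, 235) and the Rfx1 promoter (21.0, 173) stand among strong peaks, and the other 6 reach a fold of at most 12.2 and a −log10 p of at most 80.8.

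An X-box within 100 bp of the summit was found at 0 of the 3 Rfx promoter peaks, at 1 of the 2 intron peaks (Rfx4), and at all 3 peaks at TSSs of other genes. Over the whole combined list it was found at 58.9% of the promoter peaks and 85.1% of the peaks outside promoters, against 0.990% of windows shifted by 1000 bp. With 3 promoter peaks the difference between these shares cannot be tested usefully, and none was run. The best matches at the Rfx1 and Rfx3 promoters had 4 mismatches, GGCGCCATAGCCAC (chr8:84066860-84066873) and GTAGTCCTGGCGAC (chr19:28011091-28011104), a number that 78.1% of all promoter peaks reached or bettered. At the Rfx2 promoter the best match near the summit had 7 mismatches, and the best in the whole peak, GTAGCCGTGGAGAC (chr17:56830961-56830974), had 4 and lay 247.5 bp from the summit.

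The Rfx2 intron had no better match than TCGCCCCTGGCAAC (chr17:56814503-56814516), with 5 mismatches. As its sequence shows, however, the arms are present at another spacing. A search for GTTGC and GCAAC at other distances, added after this sequence was seen, found GTTGCTGGGCAAC, 13 bp long with 3 bases between the arms in place of 4, starting 32 bp upstream of the summit. This spacing was found at 51 of the 2726 combined peaks (1.87%), and at 0% of the shifted windows. The spacing of 4 bases, as in the X-box, was found at 16.1% and that of 5 bases at 1.47%. Among the 669 combined peaks without an X-box the spacing of 3 bases was found at 6.58%. The intron window of 100 bp to each side held 4 copies of GTTGC or GCAAC, a number that 2.79% of all combined peaks reached, against 1 at the Rfx2 promoter, 2 at the Rfx3 promoter and 3 at the Rfx1 promoter. At least 1 copy was found at 86.9% of the combined peaks and 21.2% of shifted windows.

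The share of G and C in the promoter windows was 70.1% at Rfx2 and 62.2% at Rfx1, above the median of 59.2% over all promoter peaks, and 51.7% at Rfx3, below it. The CCAAT box, searched as CCAAT on either strand, occurred 2 times each in the windows of the Rfx1 and Rfx2 promoters and 0 times at Rfx3, and 9.77% of all promoter peaks held at least 2. This search was also added after the sequences were seen. A match describes the sequence and does not show that a factor binds there.

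The RefSeq promoters (GRCm38.p6), which reach 250 bp before and 50 bp beyond the TSS, gave 9 sequences for the 8 genes. An X-box was found in 1 of them, that of Rfx6, GTTGATATAGCAAC, centred 4.5 bp upstream of a TSS of the gene, against 3.37% of all 32851 promoters. No peak of any list covered it. The core motif of MYB proteins, AACNG, among them A-MYB, a regulator of meiotic genes, was counted on both strands. It occurred 4 times each in the promoters of Rfx1, Rfx2 and Rfx3 and at an internal TSS of Rfx4, 6 times in that of Rfx5, 2 times at Rfx8, 1 time each at Rfx6 and the 5′ TSS of Rfx4, and 0 times at Rfx7, against a median of 2 over all promoters, of which 11.8% held at least 4.

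By −log10 p, the promoters nearest in the list to that of Rfx1 (173) were those of Setd4 and Dtwd2 above it, at 175 and 174, and of Ppp1r11 and Mib2 below it, at 173 each. Next to Rfx3 (54.6) stood Kcnu1 and Rpl22l1 above, at 54.6 each, and Trp53bp1 below, at 54.4. Next to Rfx2 (45.2) stood Izumo3 at 45.8 and Pold2 at 45.4 above, and Pdxp and Fam81a below, at 45.0 each. These neighbours share a score, and nothing else about them was compared.

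RFX5 acts with RFXANK and RFXAP on MHC genes. Of 16 genes of this complex and of MHC class I and II, 0 had a promoter peak in the combined list, against 5.26% of all genes, and 1, H2-Eb1, had one in replicate 1 alone, with a score of 26.1. Of 15 regulators of ciliary and spermatid genes, 2 had a combined promoter peak, beside the same 5.26%. They were Foxj1, a master regulator of motile cilia, at a −log10 p of 176 and rank 348, with scores of 145 and 98.1, and Sox30, a regulator of spermatid genes, at 78.6 and rank 1447, with scores of 84.8 and 18.5. The Foxj1 promoter peak thus ranked close to that of Rfx1 and well above those of Rfx2 and Rfx3. In the replicates 7 of the 15 had a promoter peak in both, against 9.05% of all genes. Beside Foxj1 and Sox30 these were, with lower scores, Gmnc (8.28 and 3.06), E2f5 (14.3 and 7.99) and Ccno (8.26 and 18.0). Tbpl1 (10.3 and 15.5) and Gtf2a1l (2.80 and 11.2) were the others. A-MYB (Mybl1), Myb, Mcidas, Trp73, E2f4, Tfdp1, Crem and Taf7l had none in any list.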

How the data were processed

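RFX2 ChIP-seq peaks of 2 WT testis replicates were used, each called against its input. Per the labels, the authors processed reads with CASAVA 1.8.2, Bowtie 0.12.7 and MACS2 2.0.10.20130520. According to the study's supplementary methods, reads with several locations were discarded, which lowers coverage of repeats, and reads mapping to the human genome were removed from a second run of replicate 2, which may remove conserved mouse sequence. The lists name GRCm38 (Ensembl 70), and 0 peaks lay beyond a chromosome end of that build.

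Each peak of the deposited replicate lists carries a single −log10 value, and whether it comes from p or q is not given in the sources used here. In the third list, attached to replicate 2, the authors give a score, −log10 p and −log10 q, the summit, and the fold enrichment relative to the local background. Its peak names begin with "all" and run to number 29491, so it was read as a pooled call. The study's methods describe default and relaxed calls and a selection of reproducible peaks by their irreproducible discovery rate. The lists do not name the call they hold or how the third was cut. The lowest scores were 2.03 in replicate 1 and 2.08 in replicate 2. If these are −log10 p, they lie just above the p threshold that the methods state for the relaxed call. The 2726 peaks of the third list are close to the number of reproducible peaks in the methods. Depth is unknown.

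Genes and TSSs came from GENCODE mouse release 21 (GRCm38). The 5′-most TSS of a gene is that of its protein-coding transcripts. Peaks were assigned to a promoter, or called shared, at an overlap of 1 bp or more. Ranks are by −log10 p or score. No test was run: the lists hold 1 group, and values stand beside the same measure over all genes or peaks. The overlap and motif searches were checked on simulated data. Python 3.11.15, numpy 2.4.6 and pysam 0.24.0 were used.

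The text names all 8 Rfx genes, every combined peak in their windows, replicate peaks in promoters or shared, genes owning the nearest TSS, promoter peaks of adjacent rank (1 is not reported here), and context genes by count or with a combined promoter peak. H2-Eb1 and the context genes without one were named after their values were seen. Members and lists were chosen with earlier results of these data known. The alternatives were other TSS sets, windows, mismatch limits and rank measures, and either replicate alone.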

Additional observations from a re-analysis of the deposited data

How the results depend on the processing

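Most values were compared with those of each replicate list alone, which lacks the other experiment and reaches down to much lower scores. The number of Rfx genes with a promoter peak rose from 3 to between 5 and 6, that over all genes from 1153 to between 2474 and 3066, that of Rfx genes with a peak in the window from 5 to between 7 and 8, and the peaks in the windows from 8 to between 31 and 65. With the upper 50% of the combined list by score, the same counts were 1, 751, 2 and 2. Over all genes, the median window held 4 peaks of replicate 1 and 2 of replicate 2, against 7 and 4.5 for the Rfx genes. A typical gene thus also had peaks of either replicate in its window. Gene bodies alone held 5 of the 8 peaks. Of the 3 promoter peaks, 0 had an X-box near the summit at up to 3 mismatches and 2 at up to 4. The share of peaks scoring below the Rfx2 promoter was 3.82% in the combined list, 11.1% by width, 0.770% by fold enrichment, and 89.4% to 95.1% in the replicates, which hold many weak peaks. The ratio of the Rfx2 intron to its promoter, a value chosen after seeing the data together with its alternatives, was 5.20, and it was 3.79 by fold enrichment and 2.00 by width. The same 3 genes were found with the 5′-most protein-coding TSS and with a window of 500 bp before to 50 bp beyond the TSS. The summit in place of the whole peak also gave them. A flank of 50 kb gave 5 genes and 7 peaks, and gene bodies alone 4 genes. Shares over all genes are not given for these 2 settings, nor for windows with the upper 50% of the list. Up to 2 mismatches, the whole peak or its centre also gave 0 X-boxes. No paired analysis was possible because the results come from no test. Without read counts, weak peaks cannot be told apart from background.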
